A study of Homo sapiens with 10 samples.

Results

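This account sets the methylated DNA peak list of HEK293T cells labelled EV against that of HEK293T cells labelled WT, the conditions of the study whose labels name neither KD nor KO. All peaks on chromosomes 1 to 22 and X entered, 87815 of EV and 30732 of WT, which makes 118547 of the 284960 peaks on these chromosomes in the 5 lists that could be assigned to a sample. HEK293T is a human embryonic kidney cell line. The labels give both groups the same medium and no treatment, spell out neither EV nor WT, and do not say whether the cells came from a clone or a pool. Each condition had 1 immunoprecipitated library and 1 input library, and 1 peak list, so no value has a replicate and no test across samples was possible. The 95% intervals given below cover counting error only, and neighbouring peaks are not independent, so they are too narrow. The files hold DNA peaks and no RNA, so the labelled cell line was not checked on expression.

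In methylated DNA immunoprecipitation, an antibody against 5-methylcytosine captures sonicated fragments, and a region is called as a peak where captured fragments pile up above the local background. In mammalian cells most CpG sites are methylated, gene bodies of active genes and satellite repeats among them, while CpG islands at gene starts are mostly free of methylation. The assay therefore reads both how methylated a region is and how densely it carries CpG sites. Centromeres, which hold few genes, are filled in the GRCh38 assembly by modelled arrays of alpha satellite, whose copies are near-identical, so the placement of reads there is uncertain.

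To show what DNA the lists captured at gene starts, 6 start windows are printed from RefSeq (GRCh38.p14), each 300 bases long, from 250 bases before a start to 50 after it, with every CG in capitals. Of all 22132 start windows of protein-coding genes, 98.1% held the motif CG, which reads the same on both strands. The first pair lay wholly inside a peak of both lists, the next pair wholly inside an EV peak and outside every WT peak, and the last pair wholly inside a WT peak and outside every EV peak. They are among the windows with the highest deposited fold enrichment in their class.
MRPL4, chr19:10251701-10252000, plus strand: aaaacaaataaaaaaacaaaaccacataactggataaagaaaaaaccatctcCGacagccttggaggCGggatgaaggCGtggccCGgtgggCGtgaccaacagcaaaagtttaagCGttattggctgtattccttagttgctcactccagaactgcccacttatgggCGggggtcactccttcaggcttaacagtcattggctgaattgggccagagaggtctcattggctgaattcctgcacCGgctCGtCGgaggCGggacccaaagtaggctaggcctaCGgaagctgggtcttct
NLRP2, chr19:54965034-54965333, plus strand: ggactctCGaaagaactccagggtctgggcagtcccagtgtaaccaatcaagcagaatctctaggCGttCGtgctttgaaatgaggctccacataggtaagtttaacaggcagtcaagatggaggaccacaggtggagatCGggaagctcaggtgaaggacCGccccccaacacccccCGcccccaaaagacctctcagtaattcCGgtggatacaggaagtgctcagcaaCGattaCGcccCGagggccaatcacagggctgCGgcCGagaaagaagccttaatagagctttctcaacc
PPP1R27, chr17:81835001-81835300, minus strand: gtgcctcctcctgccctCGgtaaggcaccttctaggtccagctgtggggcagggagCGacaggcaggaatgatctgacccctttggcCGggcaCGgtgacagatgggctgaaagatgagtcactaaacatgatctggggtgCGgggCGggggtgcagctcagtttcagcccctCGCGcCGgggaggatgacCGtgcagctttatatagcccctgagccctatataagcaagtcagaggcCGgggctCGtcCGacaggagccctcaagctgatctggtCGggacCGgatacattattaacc
PNMA6E, chrX:153401301-153401600, minus strand: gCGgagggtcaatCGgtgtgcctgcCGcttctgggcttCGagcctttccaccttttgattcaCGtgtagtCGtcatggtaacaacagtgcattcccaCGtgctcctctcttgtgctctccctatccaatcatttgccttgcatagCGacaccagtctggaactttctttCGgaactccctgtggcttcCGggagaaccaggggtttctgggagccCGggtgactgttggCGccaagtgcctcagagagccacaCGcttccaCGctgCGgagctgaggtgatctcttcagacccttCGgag
ZNF585B, chr19:37210487-37210786, minus strand: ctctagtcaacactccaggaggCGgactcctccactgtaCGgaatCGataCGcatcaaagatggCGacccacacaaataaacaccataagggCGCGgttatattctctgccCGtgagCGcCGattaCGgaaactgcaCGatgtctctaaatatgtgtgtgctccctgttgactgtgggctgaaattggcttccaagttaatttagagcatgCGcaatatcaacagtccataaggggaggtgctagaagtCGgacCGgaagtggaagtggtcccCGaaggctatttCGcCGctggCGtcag
H2BC3, chr6:26043664-26043963, minus strand: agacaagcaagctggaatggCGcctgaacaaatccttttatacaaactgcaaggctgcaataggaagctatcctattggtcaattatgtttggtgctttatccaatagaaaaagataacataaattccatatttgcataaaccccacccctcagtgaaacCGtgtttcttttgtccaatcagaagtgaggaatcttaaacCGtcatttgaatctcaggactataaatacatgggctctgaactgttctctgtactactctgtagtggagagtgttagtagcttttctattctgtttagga

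The start of MRPL4, a mitochondrial ribosomal protein gene, held 12 CG dinucleotides and lay in an EV peak of 4561 bp and a WT peak of 3525 bp. That of NLRP2, a gene of the NLR family of innate immune proteins, also held 12 and lay in peaks with nearly the same limits, 4047 bp wide in EV and 4041 bp in WT. The start of PPP1R27, which encodes a regulatory subunit of protein phosphatase 1, had 15 CG and lay in an EV peak of 3840 bp. The nearest WT peak, 2955 bp wide, began 356 bp from this start window and overlapped that EV peak. PNMA6E, a gene of the paraneoplastic antigen family on chromosome X, had 16 CG, and its nearest WT peak was 4367 bp away. On the WT side, the ZNF585B start, of a zinc finger gene, held 19 CG and lay in a WT peak of 1101 bp. The nearest EV peak lay 186 bp from this start window and overlapped that WT peak. H2BC3, a histone H2B gene, had 3 CG and lay in a WT peak of 728 bp. An EV peak 37 bp from its start window overlapped that WT peak. So the peaks at PPP1R27, ZNF585B and H2BC3 overlapped a peak of the other list outside the start window, and the EV peak at PNMA6E did not.

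Over all start windows, 971 overlapped an EV peak and 156 a WT peak, 4.39% and 0.705% of the 22132 windows. Of these, 122 lay in peaks of both lists, 849 in EV alone and 34 in WT alone. These classes describe the window only: a window in 1 list alone can lie in a peak that overlaps the other list, as at PPP1R27. The ratio of EV to WT was 6.22 (5.25 to 7.42). This is a ratio of overlapped windows, and several windows can lie in 1 peak. The ratios of peak numbers, 2.86 over all peaks and 3.78 for peaks in protein-coding gene regions, are therefore not the same measure. The median window in both lists held 15 CG dinucleotides, as did the median window in EV alone, and the median in WT alone was 14. Windows in neither list had a median of 21. By CG number, the share of starts in an EV peak was 1.10% under 5 CG, 6.63% at 5 to 9, 11.5% at 10 to 19, 4.40% at 20 to 29 and 1.30% at 30 or more. The WT shares were 0.199%, 0.844%, 1.92%, 0.718% and 0.234%. Both lists thus had their highest share at 10 to 19 CG and low shares at the CG-poorest and CG-richest starts. The ratio of EV to WT lay between 5.50 and 7.86 in these 5 classes, and their intervals overlapped. Several windows belong to 1 gene, so they are not independent.

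The EV list was 2.86 times as long as the WT list in peaks (2.82 to 2.89) and 2.05 times in covered length, 64.0 Mb against 31.2 Mb. The deposited lists differed in what they needed for a call. Both ended at a −log10 q of about 1.3, which stood for a lowest −log10 p of 2.89 in EV and 3.23 in WT. Summit pileup, the number of fragments stacked at a peak's top, could be worked out for over 99.9% of peaks. Its median was 12 in EV and 14 in WT. These pileups assume the Poisson model of MACS2 with 1 added to pileup and background. Under the same assumption, the genome-wide background and the shortest peak of each list give estimated depths, relative to EV, of 0.885 for the WT immunoprecipitated library and 0.685 for its input. They are estimates and not read totals. The part of these differences in the results below was not tested, except that with the same lowest −log10 p in both lists the ratio was 2.79.

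Sharing was unequal. With 1 bp of overlap or more, 21082 WT peaks were shared with EV, 68.6% of the WT list (68.1 to 69.1), and 21410 EV peaks with WT, 24.4% of the EV list (24.1 to 24.7). In bases, 20.4 Mb lay in both lists, 65.4% of the WT bases and 31.9% of the EV bases. EV had 66405 peaks without a WT partner and WT had 9650 without an EV partner. A shared peak of either list rarely met more than 1 partner: 95.4% of shared WT peaks and 96.7% of shared EV peaks overlapped a single peak. The WT peak that met the most was 22823 bp wide and overlapped 7 EV peaks. Joining peaks within 1 kb left the ratio at 2.72, against 2.86 without joining.

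The strength of a peak within its own list went with sharing. When the EV list was split into 4 equal parts by its −log10 q, 13.8% of the weakest, 13.8% of the next, 19.4% of the next and 50.5% of the strongest were shared. In WT these shares were 49.8%, 57.6%, 71.5% and 95.5%. Of the strongest WT peaks nearly all therefore had an EV peak, while close to equal numbers of the strongest EV peaks had and lacked a WT peak. Cutting the EV list to the length of WT by −log10 q put 43.4% of WT peaks and 42.2% of the remaining EV peaks into the shared class.

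Peaks without a partner were also found in the other lists of the series. Of EV peaks without a WT partner, 24.3% overlapped a peak of KD, 26.9% one of K rep KO and 22.8% one of K non-rep KO, and 48.5% (48.1 to 48.8) overlapped at least 1 of these 3 lists. Of WT peaks without an EV partner, 51.7% (50.7 to 52.7) did. Of shared EV peaks 91.5% did. The shares of unpartnered peaks seen elsewhere were thus similar on the EV and WT sides, although the number of such peaks was 6.88 times as high in EV.

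The lists differed between windows with and without protein-coding genes. Chromosomes were divided into 1 Mb windows, and each window was classed by how many protein-coding genes of RefSeq have their lowest coordinate in it. In the 373 windows with no such gene and at least 1 peak, EV held 7197 peaks and WT 6847, a ratio of 1.05 (1.02 to 1.09). These windows are called gene-free below, and a gene start of a 1 Mb window means this lowest coordinate on either strand. Part of a gene can still reach into them: 3.49% of their EV peaks and 1.52% of their WT peaks overlapped a protein-coding gene or its 2 kb flanks. Windows with 1 to 4 genes held 13183 and 4092, a ratio of 3.22 (3.11 to 3.34). Windows with 5 to 9 genes held 22342 and 6382, a ratio of 3.50 (3.40 to 3.60). Those with 10 to 19 genes held 23662 and 6951, a ratio of 3.40 (3.31 to 3.50), and those with 20 or more held 21431 and 6460, a ratio of 3.32 (3.23 to 3.41). The largest step lay between gene-free windows and all others, and the ratio was also lower at 1 or 2 gene starts than at 5 to 9: a single gene start went with a ratio of 2.64 (2.45 to 2.85), and 2 with 2.96 (2.76 to 3.17). The gene-free ratio was near 1 and its direction depended on the setting. It was 0.437 with both lists at the same length, 0.894 for peaks of 1 kb or wider and 0.970 (0.900 to 1.045) in 5 Mb windows. With both lists at the same length the ratio in windows with 20 or more genes was 1.17.

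**Figure D1:**
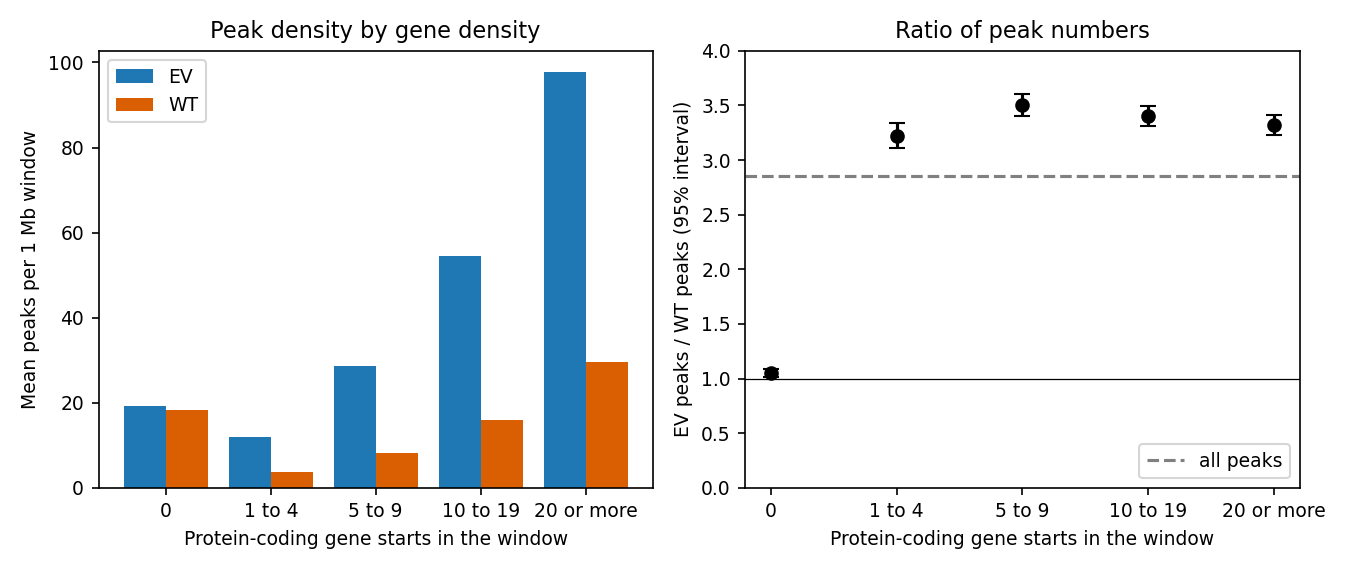
Left, mean number of EV and WT peaks per 1 Mb window (vertical axis) by the number of protein-coding gene starts in the window (horizontal axis). Right, ratio of EV to WT peak numbers with 95% counting intervals, where gene-free windows sit at 1.05 and the other 4 classes between 3.22 and 3.50. The dashed line marks the ratio over all peaks, 2.86.

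In both lists peaks became denser with genes once a window held any. The mean number of EV peaks per window was 11.9 with 1 to 4 genes, 28.6 with 5 to 9, 54.5 with 10 to 19 and 97.9 with 20 or more. The WT means were 3.70, 8.17, 16.0 and 29.5. Gene-free windows broke this order, with means of 19.3 in EV and 18.4 in WT but medians of 3 and 1, so a few windows held most of their peaks. Gene-free windows made up 8.20% of the EV list (8.02 to 8.38) and 22.3% of the WT list (21.8 to 22.7). They made up 12.6% of the K rep KO list, 12.8% of KD and 11.9% of K non-rep KO, so EV and WT lay on opposite sides of the other lists.

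Set side by side, the number of peaks in gene-free windows was similar in all lists: 7197 in EV, 6847 in WT, 7422 in K rep KO, 6926 in KD and 6346 in K non-rep KO. The number in windows with genes was not, at 80618 in EV, 23885 in WT, 51676 in K rep KO, 46993 in KD and 47050 in K non-rep KO. Which gene-free windows held the peaks was read from the KD list, which is neither EV nor WT, with a limit chosen after the data were seen. The 49 gene-free windows with 50 or more KD peaks held 5561 EV and 5777 WT peaks, a ratio of 0.963 (0.928 to 0.999), and the other 324 held 1636 and 1070, a ratio of 1.53 (1.41 to 1.65). Windows with genes and 50 or more KD peaks had a ratio of 3.61 (3.52 to 3.69). A ratio near 1 was thus found in the gene-free windows that were rich in KD peaks, and not in the other gene-free windows or in windows with genes that were as rich.

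Of the 1412 windows whose EV and WT peaks came to 20 or more, 47 held more peaks in WT, 3.33% of those tested. No gene start lay in 40 of these 47 windows, beside 77 of all 1412. The lowest was 93000001 to 94000000 of chromosome 2, with 10 EV and 37 WT peaks (ratio 0.270, 0.120 to 0.554). Windows 18000001 to 19000000 and 19000001 to 20000000 of chromosome 15 held 33 against 65 and 34 against 56. Window 53000001 to 54000000 of chromosome 11 held 75 against 117, and 60000001 to 61000000 of chromosome 7 held 126 against 187. None of these 5 windows contained a protein-coding gene start. Among those 47 windows the one with the most genes was 30000001 to 31000000 of chromosome 6, with 34 gene starts, where EV had 9 peaks and WT 13; it was singled out after its values were seen.

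At the other end, 449 of the 1412 windows reached 4-fold in EV, 31.8% of those tested, by (EV peaks + 1)/(WT peaks + 1). A window can reach 20 on EV peaks alone, so this count is a description. Window 49000001 to 50000000 of chromosome 10, where VSTM4, FAM170B and TMEM273 begin, held 25 EV peaks and 0 in WT. Window 144000001 to 145000000 of chromosome 6, with UTRN, the utrophin gene, held 21 and 0. Window 4000001 to 5000000 of chromosome 3, with ITPR1, a calcium release channel gene, held 20 and 0. Window 79000001 to 80000000 of chromosome 10, with ZMIZ1, held 35 and 1. Window 32000001 to 33000000 of chromosome 21, with URB1, held 52 and 2. All 5 hold a gene start, as do all but 77 of the 1412 tested windows, and 2 of them have only 4. They were picked on the EV and WT numbers, so their values are a description.

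**Figure D2:**
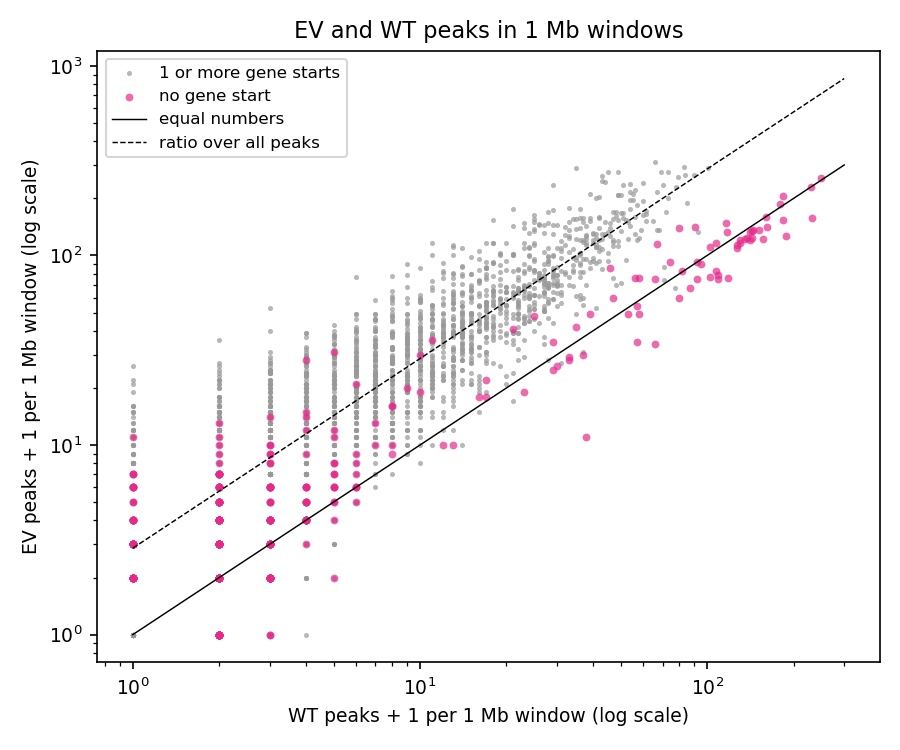
Each point is a 1 Mb window, with WT peaks plus 1 on the horizontal and EV peaks plus 1 on the vertical axis, both on log scales. Windows with a gene start (grey) scatter around the dashed line of the overall ratio, 2.86, while peak-rich windows without a gene start (magenta) lie along the solid line of equal numbers.

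Placed against gene annotation, 61.1% of EV peaks (60.8 to 61.4) and 46.1% of WT peaks (45.6 to 46.7) overlapped a protein-coding gene or the 2 kb on either side of it. The ratio of EV to WT was 3.78 (3.71 to 3.85) for these peaks. It was 3.14 (2.99 to 3.30) for peaks that touched only long non-coding RNA genes and 2.96 (2.76 to 3.18) for those that touched only other annotated genes. For peaks that touched no annotated gene it was 1.82 (1.78 to 1.86), with 24268 against 13342. EV peaks without a WT partner were the most genic class, at 65.7% (65.4 to 66.1) in protein-coding gene regions. EV peaks with a WT partner stood at 46.7%, close to WT peaks with an EV partner at 46.5% and WT peaks without one at 45.3%. Part of the WT figure lay with gene-free windows: without them 66.2% of EV and 58.9% of WT peaks were in gene regions, so a smaller difference remained.

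The lists differed in width as well. EV peaks had a median width of 522 bp with an interquartile range of 377 to 824, and WT peaks one of 748 bp with 456 to 1325. Peaks of 1 kb or wider made up 18.5% of the EV list and 37.6% of WT. By width class the ratio of EV to WT was 5.00 (4.85 to 5.15) under 0.4 kb, 3.65 (3.56 to 3.75) at 0.4 to 0.6 kb and 2.84 (2.76 to 2.92) at 0.6 to 1 kb. It was 1.41 (1.37 to 1.44) at 1 to 2 kb and 1.48 (1.39 to 1.56) at 2 to 5 kb. There were 188 EV and 202 WT peaks of 5 kb or more, and each of them overlapped a peak of the other list. The excess of EV peaks was thus one of narrow peaks above all.

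**Figure D3:**
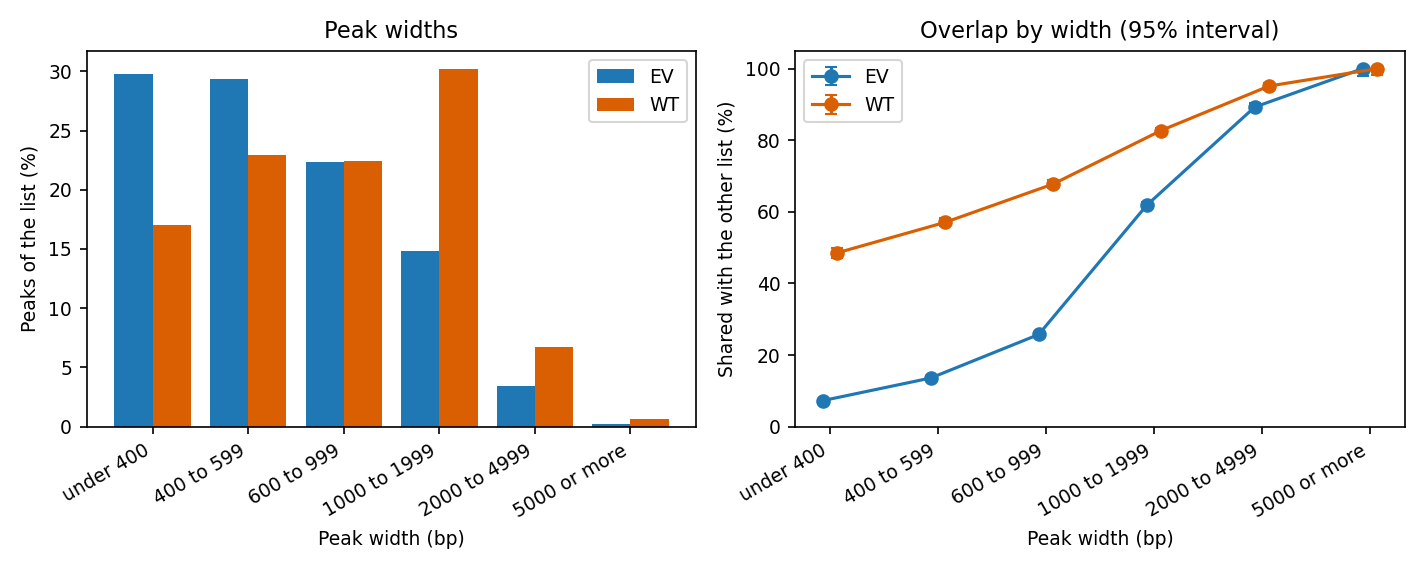
Left, share of each list (vertical axis, percent) in 6 width classes (horizontal axis), with EV highest under 0.4 kb at 29.8% and WT highest at 1 to 2 kb at 30.2%. Right, share of the peaks of each class that overlap the other list, with 95% counting intervals; it runs from 7.26% to 100% in EV and from 48.5% to 100% in WT.

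Overlap followed width in both lists. Of EV peaks under 0.4 kb 7.26% had a WT partner, against 61.8% at 1 to 2 kb and 89.3% at 2 to 5 kb. Of WT peaks these shares were 48.5%, 82.7% and 95.1%. A wide peak also meets a partner more easily by its length alone. The median width was 1024 bp for shared and 462 bp for unshared EV peaks, and 930 bp and 522 bp in WT.

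Where a single EV peak met a single WT peak, the WT peak was not the wider one. In these 18840 pairs the median width was 1022.5 bp in EV and 896 bp in WT, and the WT peak was wider in 33.4% (32.8 to 34.1). The median distance between the summits was 143 bp. In gene-free windows the pairs were alike, with medians of 1229 bp and 1263 bp and WT wider in 1813 of 3623 pairs. In windows with genes they were 967 bp and 798 bp, with WT wider in 29.5% of 15217 pairs. So the larger median width of the WT list went with fewer narrow peaks in it, and not with wider calls at the same places.

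Width and gene density were then crossed. In gene-free windows the ratio of EV to WT was 1.94 (1.76 to 2.14) under 0.4 kb, 1.26 (1.16 to 1.37) at 0.4 to 0.6 kb, 0.922 (0.854 to 0.994) at 0.6 to 1 kb, 0.872 (0.824 to 0.923) at 1 to 2 kb and 0.944 (0.868 to 1.03) at 2 kb or more. In windows with genes it was 5.42 (5.25 to 5.60), 4.06 (3.95 to 4.18), 3.34 (3.24 to 3.45), 1.61 (1.57 to 1.66) and 1.93 (1.79 to 2.07). Each width class had a higher ratio in windows with genes, and narrow peaks had a higher ratio than wide ones in both settings. The caller's background, as estimated at the called peaks, also differed. In gene-free windows its median was 3.76 at EV peaks and 5.84 at WT peaks, against 1.88 and 1.95 in windows with genes. The part of this background in the results was not tested.

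The widest peaks were largely shared. The widest EV peak, 21569 bp at 42066598 to 42088166 of chromosome 10, was 486 kb from ZNF33B, a zinc finger gene, and WT had a peak of 21536 bp with nearly the same limits. The widest WT peak, 22823 bp at 38143426 to 38166248 of chromosome 16, lay 3754 kb from the nearest protein-coding gene. A peak at 36561060 to 36581672 of the same chromosome, 20613 bp wide in EV, had a WT counterpart of 20486 bp. All of the 5 widest peaks of each list overlapped the other list. Apart from an EV peak of 16130 bp on chromosome 7 that touched the predicted gene LOC124901649, these peaks were 448 kb or more from a protein-coding gene.

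By chromosome, the ratio of EV to WT ran from 1.30 on chromosome 18 to 3.52 on chromosome 6. Chromosome 18 held 1346 EV and 1038 WT peaks (1.19 to 1.41), and its ratio relative to all peaks was 0.454. Next came chromosome X with 2.32 (2.16 to 2.49), chromosome 12 with 2.48 (2.35 to 2.62), chromosome 13 with 2.49 and chromosome 8 with 2.51, whose intervals overlapped. The highest after chromosome 6 were chromosome 2 with 3.42, chromosome 16 with 3.23 and chromosome 10 with 3.20, also with overlapping intervals. Every chromosome had more peaks in EV. Gene density of the chromosome did not order the ratios: chromosome 19, with 24.8 protein-coding genes per Mb the densest, stood at 2.71 (2.59 to 2.85), and chromosome 4, with 4.05, at 2.83 (2.62 to 3.05). Over the 23 chromosomes Pearson's r between genes per Mb and the ratio was 0.166 and Spearman's rho 0.330, given as a description; all points share the same libraries.

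**Figure D4:**
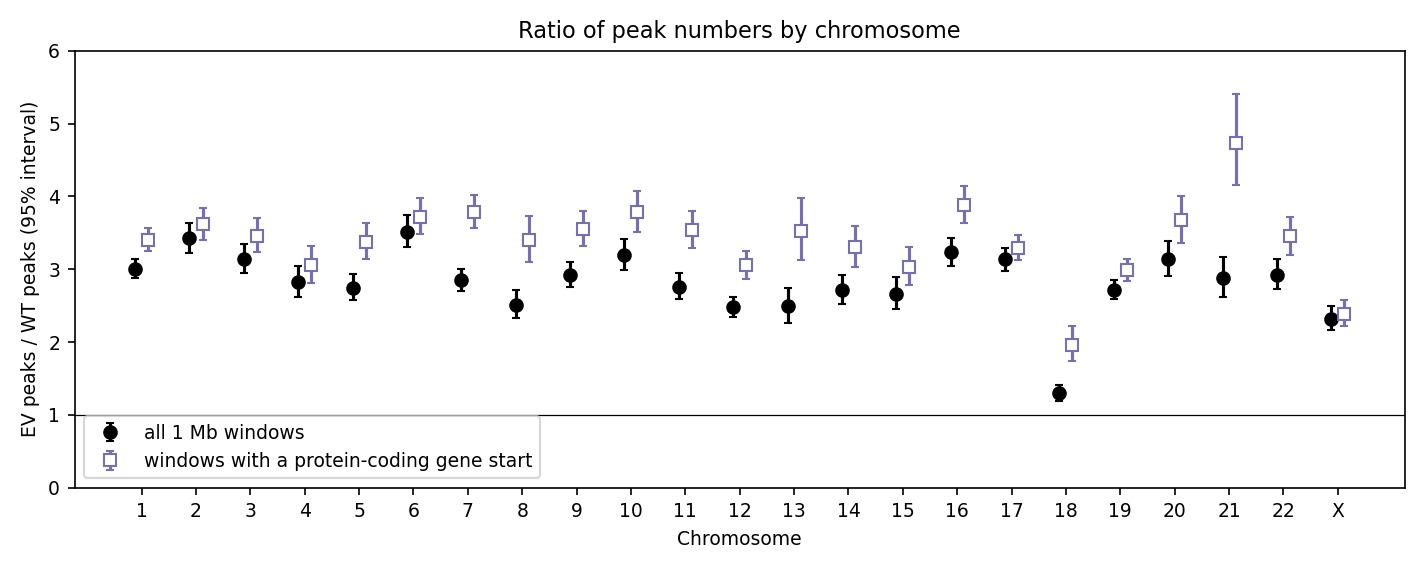
Ratio of EV to WT peak numbers (vertical axis) by chromosome (horizontal axis), with 95% counting intervals, over all 1 Mb windows (filled) and over windows with a protein-coding gene start (open). Chromosome 18 is lowest in both, at 1.30 and 1.96, and chromosome 21 goes from 2.88 to 4.74.

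Gene-free windows shaped part of this order. They held 61.8% of the WT peaks of chromosome 18 and 42.3% of its EV peaks, and 49.7% of the WT peaks of chromosome 21. Without them the ratio over all chromosomes was 3.38 (3.33 to 3.42). Chromosome 18 then stood at 1.96 (1.74 to 2.22) and chromosome X at 2.39 (2.22 to 2.58), still the lowest. Chromosome 21 stood highest at 4.74 (4.16 to 5.41), and the other 20 chromosomes lay between 2.99 and 3.88.

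On chromosome 18 the ratio was below 2.86 in each 10 Mb segment from its start to 70 Mb. It was 1.56 (1.12 to 2.18) from 0 to 10 Mb, 0.984 (0.883 to 1.10) from 10 to 20 Mb, 1.66 from 20 to 30 Mb, 1.54 from 30 to 40 Mb, 2.19 (1.41 to 3.47) from 40 to 50 Mb, 1.71 from 50 to 60 Mb and 1.88 (0.990 to 3.68) from 60 to 70 Mb. From 70 to 80 Mb it was 3.17 (2.27 to 4.50), and the last segment held 2 peaks in each list. In windows with genes, chromosome 18 held 1.66% of the WT peaks and 0.964% of the EV peaks, beside 0.956% in K rep KO, 0.847% in KD and 1.08% in K non-rep KO. So it was the WT share that stood apart there.

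Chromosome X showed the same side, with 4.05% of WT peaks in windows with genes against 2.87% in EV, 3.15% in K rep KO, 2.95% in KD and 3.13% in K non-rep KO. Along X the ratio ran from 1.32 (0.761 to 2.32) at 90 to 100 Mb up to 4.23 (3.30 to 5.46) at 150 to 160 Mb. On chromosome 21 the WT share was the low one, 1.18%, with 1.66% in EV, 1.57% in K rep KO, 1.67% in KD and 1.56% in K non-rep KO. Its ratio was 1.12 (0.944 to 1.34) at 10 to 20 Mb, 4.09 (3.27 to 5.16) at 30 to 40 Mb and 6.10 (5.04 to 7.44) from 40 Mb to its end.

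At the level of single genes, peaks were counted in the gene body with 2 kb on either side. Of 19974 protein-coding genes, 13642 held an EV peak and 7326 a WT peak. More peaks in EV were found in 12091 genes, 60.5%, and more in WT in 578, 2.89%. Of the 1906 genes whose EV and WT peaks came to 10 or more, 659 reached 4-fold in EV, 34.6% of those tested. A gene can reach 10 on EV peaks alone, and 99 of the tested genes had no WT peak. The counts past 4-fold, also those by chromosome, are therefore a description. The ratio used was (EV peaks + 1)/(WT peaks + 1), with a median log2 of 1.58 over the tested genes. At the limit of 4 stood 52 genes, and the next below was at 3.92. With a deposited −log10 q of 5 or more 143 of 426 tested genes reached 4-fold, and with a fold enrichment of 4 or more 290 of 833. With neighbouring peaks joined it was 419 of 1529. With both lists at the same length it was 14 of 561, and with peaks of 1 kb or wider 14 of 67. At the other end 33 genes, 1.73%, had at least as many peaks in WT. By chromosome the share past 4-fold was 65.7% of 35 tested genes on chromosome 21, 21.4% of 14 on chromosome 18 and 21.1% of 38 on chromosome X.

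The 10 genes at the upper end held at most 2 WT peaks each. RXRA, a nuclear receptor that pairs with other receptors (chromosome 9, 134326455 to 134440585), had 29 EV peaks and 0 WT peaks. HDAC4, a class IIa histone deacetylase gene (chromosome 2, 239048168 to 239401649), held 74 and 2, and both WT peaks lay on EV peaks. HIPK2, a nuclear kinase gene, held 22 and 0, PHF21B, a PHD finger gene, 21 and 0, and INTS1, of the Integrator complex that processes small nuclear RNAs, 20 and 0. The transcription factor genes ZNF423 and EBF3 held 19 and 18 against 0, and KCNT1, a sodium-activated potassium channel gene, 18 against 0. IQSEC1, an exchange factor gene for ARF GTPases, held 57 and 2, and BAIAP2, an actin adaptor gene, 37 and 1. Per 100 kb of gene region the EV number ran from 5.06 in ZNF423 to 52.5 in INTS1.

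The median width of their EV peaks ran from 399 bp in HIPK2 to 591 bp in BAIAP2, with INTS1 at 910.5 bp, around the 522 bp of the whole EV list. In the other 3 lists none of them was bare: they held between 9 and 42 peaks in the KD list, between 7 and 40 in that of K rep KO, and between 6 and 33 in that of K non-rep KO. In that order RXRA held 23, 13 and 16, and HDAC4 37, 40 and 33. Since the genes were picked on the EV and WT numbers, only the values in the other lists are free of that choice.

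At the lower end numbers were small and intervals wide. ANKRD36, of a multicopy ankyrin repeat family (chromosome 2, 97113153 to 97264521), held 2 peaks in EV and 8 in WT, a ratio of 0.250 (0.0259 to 1.25). NBPF19, of a family of near-identical copies on chromosome 1, held 4 and 12 (0.333, 0.0784 to 1.10); read placement in both is uncertain. ADA2, an adenosine deaminase gene, held 5 and 8. PRPF8, a core spliceosome gene, held 4 and 6, and DHTKD1, a mitochondrial dehydrogenase gene, 6 and 8. DLGAP2 held 8 and 10, PTPRD, a receptor phosphatase gene, 6 and 7, and ELAVL3, NIBAN3 and YWHAE 5 and 6 each. All 10 intervals included 1, and all of these genes except NIBAN3 held between 2 and 9 peaks in each of the other 3 lists. These genes too were picked on the EV and WT numbers, so their ratios are a description.

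Genes with the most regions in both lists were long ones with many EV peaks. PTPRN2, a receptor-type phosphatase gene of secretory granules (chromosome 7, 157539056 to 158587823), held 77 peaks in EV and 22 in WT, with 19 shared regions. MAD1L1, a mitotic checkpoint gene, held 131 and 17 with 16 shared, and RPTOR, of the mTORC1 complex, 103 and 18 with 14 shared. GNG7, a G protein subunit gene, held 46 and 22 with 15 shared, and RAP1GAP2 60 and 23 with 14 shared. DIP2C held 74 and 17, ANKRD11, a chromatin cofactor gene, 51 and 15, STX8, a SNARE gene, 39 and 17, MACF1, a cytoskeletal linker gene, 26 and 13, and INPP5B, a phosphatase gene, 16 and 13. In these genes 12 to 16 of the 13 to 23 WT peaks met an EV peak, or 19 of 22 in PTPRN2, while most EV peaks of each gene but INPP5B met none in WT. In INPP5B 12 of 16 EV peaks met a WT peak.

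**Figure D5:**
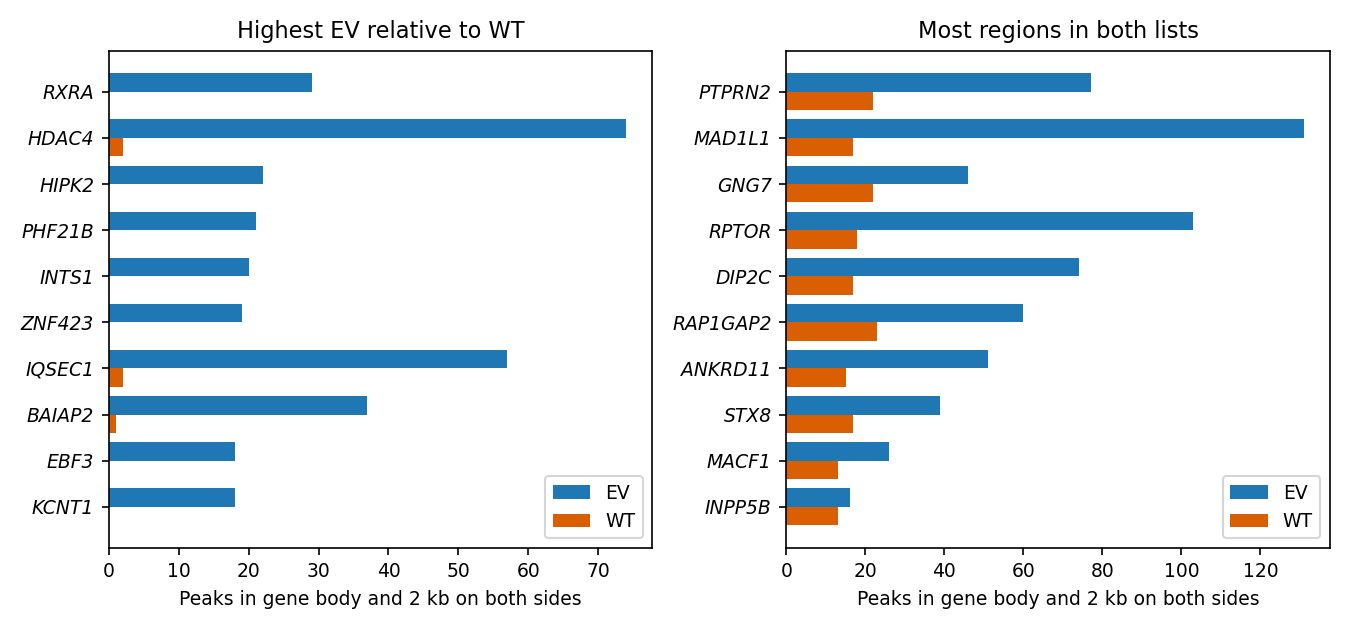
Peaks in the gene body and 2 kb on both sides (horizontal axis) in EV and WT, for the 10 genes with the highest EV number relative to WT (left) and the 10 with the most regions in both lists (right). On the left WT has at most 2 peaks in a gene, and on the right 13 to 23.

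Gene families were read against the background that 60.5% of all protein-coding genes had more peaks in EV and 2.89% more in WT, with a ratio of 3.78 over their peaks. Counts for each family are of its members found in the gene table, and the families were listed with results of these data known. Among developmental and structural genes, HOX genes, the transcription factors of body plan, had more peaks in EV in 28 of 39 and more in WT in 1. They held 48 peaks in EV and 5 in WT, a ratio of 9.60 (3.84 to 30.9). HOXD3 held 6 and 1, HOXB3 6 and 0 and HOXC12 4 and 0. Collagen genes, of the extracellular matrix, had more in EV in 33 of 44 and more in WT in 0, with 274 peaks against 36, a ratio of 7.61 (5.36 to 11.1). All 9 collagen genes with 10 or more peaks in both lists together passed 4-fold, where 34.6% of all tested genes did. A gene can reach 10 on EV peaks alone, so this count is a description. COL23A1 held 42 and 5, COL18A1 39 and 7 and COL5A1 40 and 3. Clustered protocadherin genes, adhesion genes in tandem arrays, had more in EV in 41 of 53. Their nested regions share peaks, 37 in EV and 5 in WT, so the members do not count separately. PCDHA1 held 17 and 2, PCDHA2 16 and 2 and PCDHGA1 15 and 3.

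Keratin genes, of the epithelial cytoskeleton, held 25 peaks in EV and 3 in WT, and all 3 of the WT peaks fell in the region of KRT8, which had 5 in EV. KRT82 held 3 and 0 and KRT19 2 and 0, and 38 of the 55 keratin genes had no peak in either list. Histone genes had more in EV in 33 of 76 and more in WT in 0, on 38 peaks against 7. H2BC8 held 2 and 2, H2BC9 3 and 1 and H2AC8 2 and 1.

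Among regulators, nuclear receptor genes had more peaks in EV in 35 of 43 and more in WT in 1, with 186 against 32, a ratio of 5.81 (3.98 to 8.74). Besides RXRA, PPARA, a receptor of fatty acid metabolism, held 17 and 2, and NR6A1, an orphan receptor, 11 and 6. Histone deacetylase and sirtuin genes had more in EV in 17 of 18, with 141 against 21, a ratio of 6.71, but HDAC4 held 74 of those EV peaks. Without HDAC4 the family had 67 against 19, a ratio of 3.53 (2.09 to 6.22), below the 3.78 of all protein-coding genes. SIRT4 held 9 and 5 and HDAC1 7 and 4. DNA methylation genes, the writers, erasers and readers of the mark, had more in EV in 15 of 18, with 123 against 28, a ratio of 4.39 (2.90 to 6.88). UHRF1, which recruits the maintenance methyltransferase, held 20 and 8, DNMT3A, a de novo methyltransferase gene, 20 and 2, and TET1, a 5-methylcytosine dioxygenase gene, 15 and 5. Imprinted genes had more in EV in 18 of 31 and more in WT in 2, with 188 against 28, and TRAPPC9 held 59 and 11, KCNQ1 45 and 3 and WDR27 28 and 5.

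The 3 remaining families had ratios below 3.78. Olfactory receptor genes held 36 peaks in EV and 21 in WT, a ratio of 1.71 (0.974 to 3.09), and 365 of the 392 had no peak in either list. OR2C1 held 5 and 5, OR10G3 2 and 2 and OR1F1 4 and 0. Zinc finger genes of chromosome 19 had more in EV in 126 of 251 and more in WT in 9, with 398 against 157, a ratio of 2.54 (2.10 to 3.07), below 3.78 for all protein-coding genes. ZNF536 held 15 and 2, ZNF787 14 and 2 and ZNF565 11 and 3. Ribosomal protein genes, short and active, had more in EV in 30 of 84 and more in WT in 4, with 64 against 26, a ratio of 2.46 (1.54 to 4.05). RPL27 held 4 and 2, RPL22 4 and 1 and RPL23 3 and 2. With all members, the intervals of the collagen, nuclear receptor, HOX, imprinted and deacetylase families lay above 3.78, those of the zinc finger and olfactory receptor genes below it, and those of the other 5 families included it. In an alternative added after seeing the data, each family was counted without its member with the most peaks. The interval then included 3.78 also for nuclear receptors without RXRA (4.91, 3.34 to 7.42), for the deacetylases without HDAC4 and for olfactory receptors without OR2C1 (1.94, 1.03 to 3.79), while keratin genes without KRT8 held 20 EV peaks and 0 WT peaks.

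The ratio also differed by gene length. Genes under 10 kb held 4966 EV and 1065 WT peaks, a ratio of 4.66 (4.36 to 4.99). It was 3.75 (3.63 to 3.87) for genes of 10 to 50 kb, 3.65 (3.55 to 3.75) for those of 50 to 200 kb and 4.05 (3.88 to 4.23) for those of 200 kb or more, counting a peak once for each gene it touches. The share of genes with any peak went up with length in both lists, from 48.7% to 89.3% in EV and from 15.8% to 64.9% in WT.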

How the data were processed

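MeDIP-seq libraries and inputs of 5 conditions (10 samples) were made from HEK293T cells. The submitters' processing notes name Bowtie2, MACS2, deepTools and GRCh38, with no versions or settings. The authors deposited 1 narrowPeak list per condition with, for each peak, a score, a fold enrichment (a ratio over the local background), a −log10 p-value, a −log10 q-value and a summit. These are the authors' own values. They were used to describe and filter peaks, and to estimate the pileups, backgrounds and relative depths that are set side by side between lists. Column names are not in the files; the columns were read by the narrowPeak order. A sixth list, which matches no sample label, has 4 value columns and was not used.

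Peaks outside chromosomes 1 to 22 and X were left out, 3.90% of EV and 5.83% of WT. Genes and start windows came from RefSeq (GRCh38.p14); start windows were matched for 15812 of 19974 protein-coding genes. Gene regions are gene bodies with 2 kb on both sides. Intervals are at 95%, exact (Clopper-Pearson) for a ratio and Wilson for a share. Read totals per library were not used here. Summit pileups and relative depths were estimated from the deposited fold and −log10 p-value, assuming the Poisson model of MACS2 with 1 added to pileup and background. Counting used Python 3.11.15, pandas 2.3.3, numpy 2.4.6 and scipy 1.17.1, and was tested on simulated data.

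With 1 list a condition, no test across samples was made. Members and gene lists were chosen with earlier results of these data known. Named genes are the 10 highest and 10 lowest by (EV + 1)/(WT + 1) among genes with 10 or more peaks, the 10 with the most shared regions, the 3 members of each family with the most peaks, and start windows with the highest fold in each class. The printed start windows are the 2 of each class with the highest deposited fold that lie wholly inside a peak. The alternatives were stricter −log10 q or fold limits, lists of the same length, joined peaks, 50% overlap, no gene-free windows, gene bodies alone and 5 Mb windows. A common lowest −log10 p, a 1 kb width limit and gene families without their most peak-rich member were added after seeing the data.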

Additional observations from a re-analysis of the deposited data

How the results depend on the processing

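The main values were a ratio of 2.86, shared shares of 68.6% (WT) and 24.4% (EV), gene-region shares of 61.1% (EV) and 46.1% (WT), ratios of 1.05 and 3.32 in windows with 0 and with 20 or more genes, and 659 genes at 4-fold. In the same order, a −log10 q of 5 or more gave 2.75, 69.3%, 25.3%, 59.8% and 43.8%, and 143 genes. A fold of 4 or more gave 3.20, 61.2%, 19.3%, 62.6%, 51.1%, 1.29, 3.46 and 290. Lists of the same length, which fixes the ratio at 1, gave 43.4%, 42.2%, 58.8% (EV), 0.437, 1.17 and 14. Joining peaks within 1 kb gave 2.72, 70.0%, 25.7%, 47.8% (WT), 2.90 and 419. An overlap of 50% of the smaller peak gave shared shares of 64.8% and 22.9%. Without gene-free windows the values were 3.38, 69.3%, 20.8%, 66.2% and 58.9%. Gene bodies alone gave 56.5% and 42.2%. Windows of 5 Mb gave 0.970 and 3.13. Of the alternatives chosen after seeing the data, a common lowest −log10 p gave 2.79, 67.7% (WT shared) and 1.01 in gene-free windows. Peaks of 1 kb or wider gave 1.41, 49.2% (EV shared), 51.0%, 38.5%, 0.894, 1.94 and 14.

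Of 60 values under alternatives, 45 moved beyond counting error or by over 1.5 times, 3 turned direction, all of them the gene-free ratio, and 12 did neither. Some of these outcomes were fixed in advance. The ratio at the same length is 1, and the WT gene-region share cannot move where the WT list is not cut. Of the turned values, the one in 5 Mb windows had an interval that included 1 (0.900 to 1.045). For stricter limits, wide peaks, joined peaks and lists of the same length fewer genes reach 10 peaks, which lowers the gene count by construction. The same length also fixes the overall ratio at 1. For the other changes the cause was not tested. EV kept the larger share in gene regions and WT the larger shared share in every alternative that gave both; at the same length the shared shares are nearly equal by construction. Leaving out the member with the most peaks moved the ratio of 1 of 12 gene families beyond counting error, deacetylases to 3.53, and left keratins with 20 against 0 and so no ratio. No paired analysis was possible because each condition has 1 list and the labels carry no replicate numbers. Read totals were not used here; the estimated depth of the WT input was 0.685 of that of EV, and its part in the results was not tested.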
